A study of Mus musculus with 8 samples.

Results

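Glucocorticoid- and fasting-responsive genes were followed in the lacrimal gland (LG) of mice under calorie restriction (CR). The set holds 10 genes, Fkbp5, Tsc22d3, Zbtb16, Sgk1, Klf9, Klf15, Mt1, Mt2, Ddit4 and Txnip, chosen by symbol among 24552 genes with a distinct symbol in the deposited count table. All 10 were found and all 10 were counted often enough to be tested, as were 11211 genes in all. The samples were 8 libraries of exorbital LG RNA from female C57BL/6J mice, 4 from mice fed ad libitum (AL) and 4 from mice given 40% CR. Mice entered the diets at 6 to 7 months of age, stayed on them for 4 months and were 10 to 11 months old at collection. By the study, CR mice were fed daily shortly before the dark phase. The hour of tissue collection is not given in the sources used here. The study had 2 cohorts, and it states the meal time after its account of the second. In that cohort the CR chow was also enriched in vitamins and micronutrients, and the labels do not say which cohort gave these glands. Calorie intake, meal time and, possibly, chow composition therefore cannot be told apart in this contrast.

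Glucocorticoids are adrenal steroid hormones whose plasma level follows the time of day, the time of meals and stress. They bind the glucocorticoid receptor, encoded by Nr3c1, which is held in the cytoplasm by heat shock protein chaperones, enters the nucleus after binding hormone and activates genes through response elements in DNA. Fkbp5, Tsc22d3, Zbtb16, Sgk1, Klf9 and Per1 are among its best known targets in many tissues. Klf15, Txnip and Ddit4 respond both to glucocorticoids and to nutrients, and Mt1 and Mt2 respond to glucocorticoids and to zinc. Fasting and CR are known to raise circulating glucocorticoids in rodents, but hormone levels were not among the data analysed here.

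The promoters of 4 of these genes are shown because they hold response elements for which the genes are known. RefSeq start sites on GRCm38.p6 gave windows from 250 bases before to 50 bases after the start for 9 of the 10 genes. The full palindromic glucocorticoid response element in its strict form, AGAACA and its reverse complement TGTTCT with 3 bases between, was searched on both strands and occurred in 3 of 32851 mouse windows (0.00913%). Sgk1 held 1 of them, in a window upstream of 1 of its 6 annotated starts, at chr10:21993640-21993939 on the plus strand, with the element in capitals.
Sgk1: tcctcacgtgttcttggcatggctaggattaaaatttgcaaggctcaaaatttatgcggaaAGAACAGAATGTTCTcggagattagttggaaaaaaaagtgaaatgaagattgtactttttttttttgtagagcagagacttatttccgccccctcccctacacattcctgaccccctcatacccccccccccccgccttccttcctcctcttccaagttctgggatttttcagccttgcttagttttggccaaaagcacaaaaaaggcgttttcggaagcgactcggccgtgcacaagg
In the metallothionein genes the core of the metal response element, TGCACNC or TGCGCNC, was searched on both strands, since zinc acts on these genes through it. Mt1 (chr8:94178839-94179138, plus strand) held 3 cores and Mt2 (chr8:94172368-94172667, plus strand) held 4, shown in capitals, whereas 1.97% of all windows held 3 or more and 0.517% held 4 or more.
Mt1: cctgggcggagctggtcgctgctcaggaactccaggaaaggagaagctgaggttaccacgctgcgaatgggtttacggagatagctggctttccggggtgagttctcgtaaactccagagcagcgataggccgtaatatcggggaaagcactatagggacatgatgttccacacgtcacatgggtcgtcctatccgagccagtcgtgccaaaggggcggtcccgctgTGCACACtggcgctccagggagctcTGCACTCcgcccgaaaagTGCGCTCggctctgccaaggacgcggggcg
Mt2: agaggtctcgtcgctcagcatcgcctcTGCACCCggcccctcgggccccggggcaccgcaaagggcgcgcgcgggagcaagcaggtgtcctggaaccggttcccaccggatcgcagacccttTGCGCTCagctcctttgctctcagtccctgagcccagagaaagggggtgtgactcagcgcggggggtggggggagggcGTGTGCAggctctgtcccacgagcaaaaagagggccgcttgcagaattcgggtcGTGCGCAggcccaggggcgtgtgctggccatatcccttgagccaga
Txnip (chr3:96557707-96558006, plus strand) carries a pair of CACGAG boxes of the kind bound by the glucose-sensing factors of the Mondo family. The pair, with 5 bases between the boxes, begins 85 bases before the start and is in capitals. It was searched after the window had been read, and no other mouse window held it (1 of 32851).
Txnip: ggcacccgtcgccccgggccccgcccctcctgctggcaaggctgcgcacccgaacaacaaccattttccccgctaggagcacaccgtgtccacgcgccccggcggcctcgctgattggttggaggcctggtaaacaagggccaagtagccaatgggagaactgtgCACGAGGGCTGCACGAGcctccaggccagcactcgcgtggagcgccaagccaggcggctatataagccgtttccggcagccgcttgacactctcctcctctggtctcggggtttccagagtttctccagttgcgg
The single arm AGAACA was present in 19.0% of all windows and, among the 9 genes with a window, in Sgk1 and Tsc22d3. The windows of Klf9, Ddit4 and Fkbp5 held none of the glucocorticoid forms searched. Klf15 held 3 CACGTG boxes, and Fkbp5 and Sgk1 held 1 each, where 7.15% of all windows held such a box. A match of letters in these windows is a description and not evidence of binding.

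The libraries held between 12051881 and 22156511 counts. Levels are given as scaled CPM, the reads of a gene per 1e6 of the scaled size of its library. That size is the reads of all genes tested multiplied by the RLE factor of the library. Replicates 1 to 4 are given in that order within each diet. The floor of detection was taken as 3 counts, which correspond to between 0.152 and 0.231 CPM. That floor reflects counting error alone, because reads were not collapsed to molecules. Markers of the LG epithelium were counted in every library (10 of 10), with a sum between 204099 and 241634 CPM in AL and between 72205 and 195671 CPM in CR. That sum is mostly Obp1a and Obp1b, with log2 fold changes of -0.78 and -1.85. Obp1b was at 65801 CPM in AL and 18201 CPM in CR on average, without overlap between the diets, but neither gene passed the test (edgeR adjusted p = 0.571 for Obp1a and 0.131 for Obp1b). Of the 10 markers 1 was called higher (Sox10) and 0 lower. Parotid gland transcripts were more abundant in CR libraries 1 to 3 than in any AL library. Their sum over 6 markers ranged from 240 to 23620 CPM in AL and from 17968 to 231549 CPM in CR, with 4 of the 6 counted in each library and Prh1 and Prp2 at 0 in some. AL replicate 4 was the lowest library, and CR replicate 4, the lowest of CR, lay within the AL range. White adipose markers summed to between 9.04 and 20.1 CPM in AL and between 30.8 and 113 CPM in CR, with Lep and Plin1 at 0 in some libraries. Leukocyte markers summed to between 77.9 and 251 CPM in AL and between 49.0 and 67.8 CPM in CR, and the lymphocyte genes Cd79a, Cd79b, Cd3d and Cd3e were at 0 in some libraries. In glands sequenced whole, fewer cells of a type and less RNA per cell cannot be told apart, and the part of other tissues in the results below was not tested except where a value is given.

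Ddit4 was lower and Tsc22d3 higher in CR, and the other 8 genes did not pass the test. Calls required an adjusted p below 0.05 together with a fold of 1.5 or more. On this rule 1 of 10 genes was higher in CR, against 1.20% of all genes tested, and 1 was lower, against 0.785%. Both other tools called more genes over the whole table. DESeq2 called 3 of the 10 higher and 1 lower, beside 2.97% and 2.26% of all genes it tested, and voom, here always with sample quality weights, called 2 higher and 1 lower, beside 2.11% and 1.43%. Of the 10, 8 had a positive and 2 a negative log2 fold change, with a median of 0.56, beside 0.01 over all genes tested. That median was 0.36 without CR replicate 2, 0.37 without AL replicate 1 and 0.92 without AL replicate 4, the range of the fits that left out 1 library. At an unadjusted p under 0.05, 3 were higher (Fkbp5, Tsc22d3 and Mt1) and 1 was lower, where 8.62% and 8.10% of all genes were. The libraries of both diets did not overlap for 2 of the 10 genes, beside 9.79% of all genes, 1 with CR above AL (4.58% of all genes) and 1 with CR below AL (5.20%). The spread within a diet differed widely, with a coefficient of variation from 9.77% for Ddit4 in AL to 124% for Txnip in AL.

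**Figure D1:**
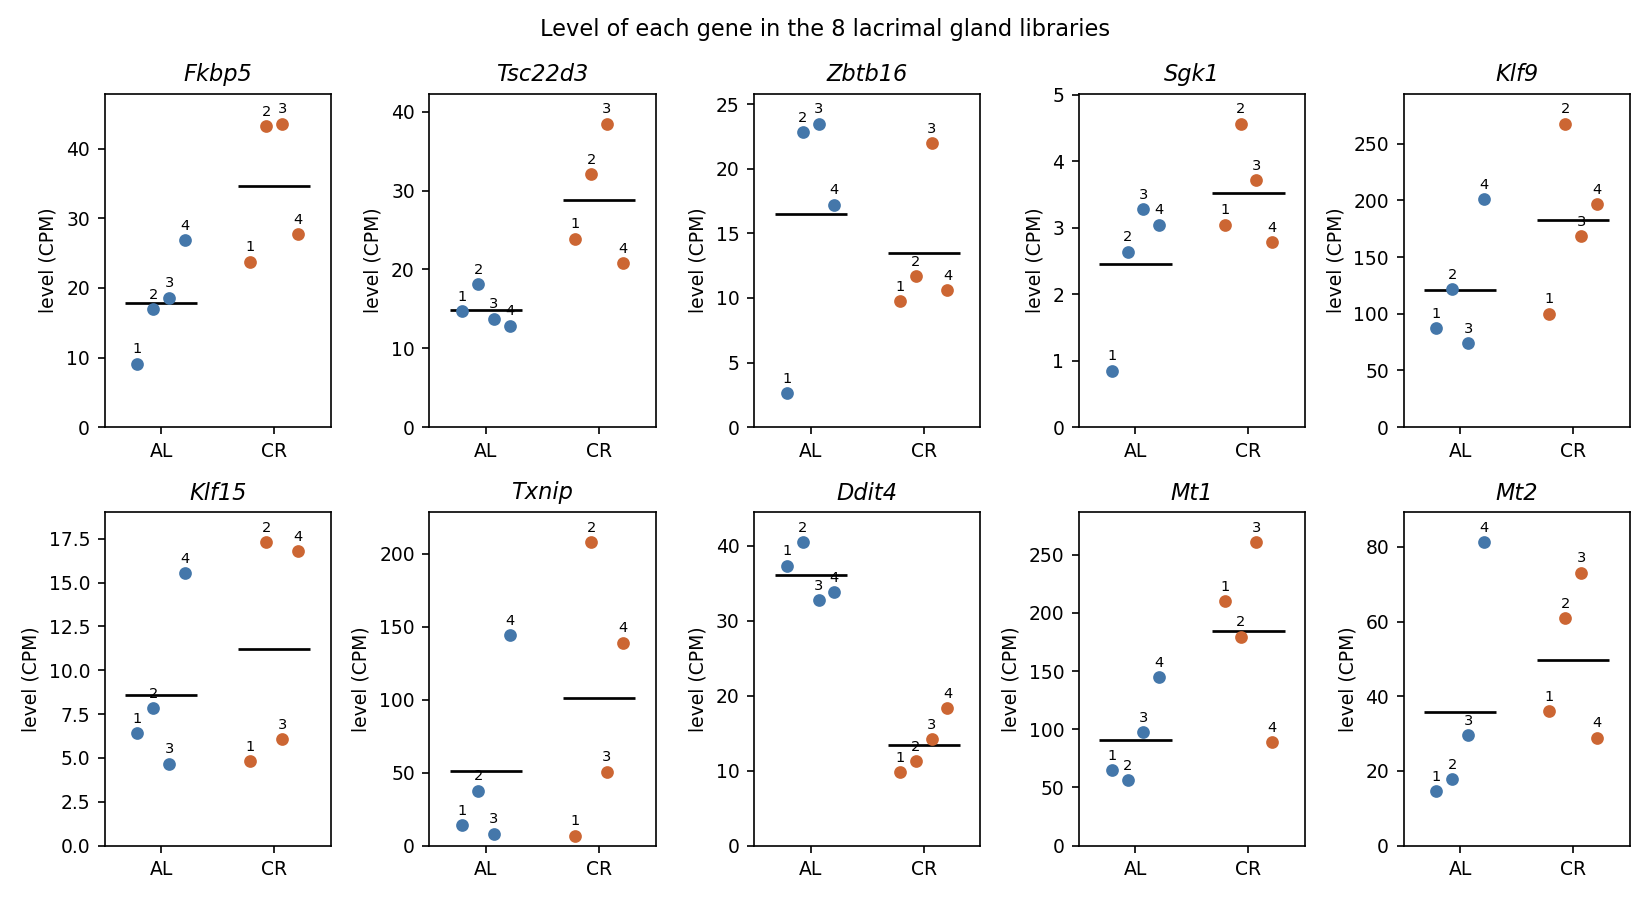
Level of each of the 10 genes in CPM (linear axes from 0) in AL (blue) and CR (orange) libraries, with replicate numbers beside the points and the mean of 4 libraries as a line. The diets separate for Tsc22d3 and Ddit4, while the Txnip points cover 6.86 to 208 CPM within CR alone.

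**Figure D2:**
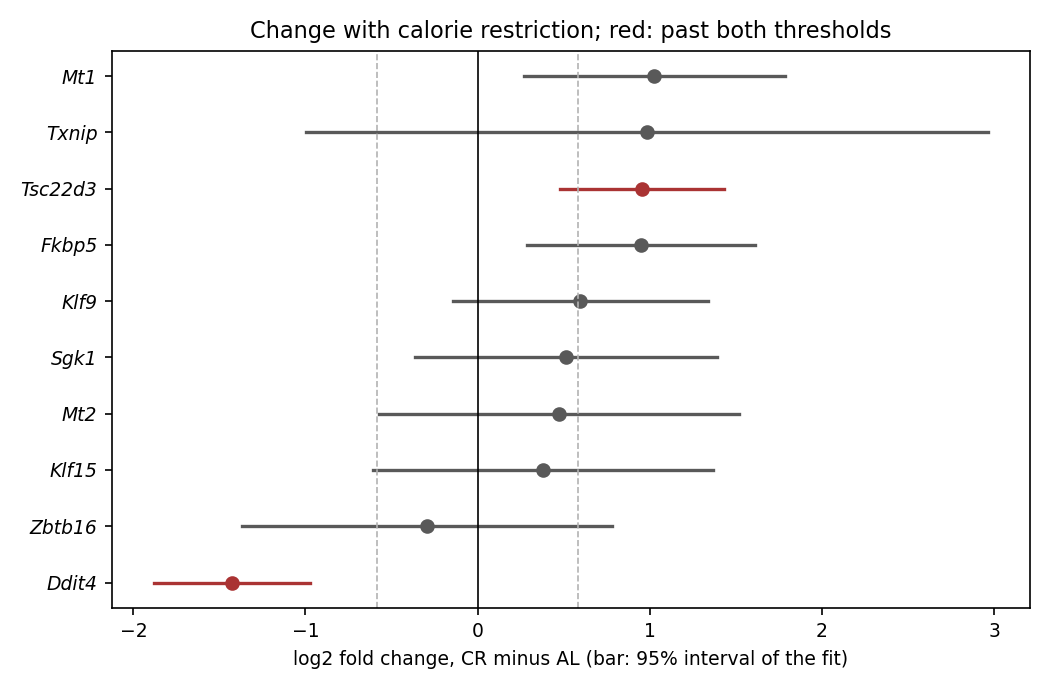
Log2 fold change of CR over AL with the 95% interval of the fit for each gene, red where called, and dashed lines at a fold change of 1.5 in either direction. Only the intervals of Ddit4, Tsc22d3, Fkbp5 and Mt1 leave out 0.

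Ddit4 (Gene ID 74747, chromosome 10 from 59949669 to 59951834 on GRCm38, minus strand) encodes REDD1, a stress- and glucocorticoid-inducible inhibitor of the growth kinase complex mTORC1. Its level was 37.4, 40.5, 32.7 and 33.8 CPM under AL and 9.83, 11.3, 14.2 and 18.4 CPM under CR. All CR libraries lay below all AL libraries, and the lowest AL library was 1.78-fold above the highest CR library. The mean fell from 36.1 ± 3.53 to 13.4 ± 3.78 CPM (mean ± SD, n = 4 each), which is 2.69-fold lower. The log2 fold change was -1.43 (standard error 0.21, 95% interval -1.88 to -0.97), with an adjusted p of 0.00697 in the fit of edgeR across all genes. Ddit4 was called in each of the 8 fits that left out 1 library. Highest among the CR libraries was replicate 4, which was also the one with the fewest parotid transcripts. Once a score of the parotid transcripts entered the fit, the log2 fold change of Ddit4 was -1.13 and the call was lost (edgeR adjusted p = 0.347). That score ranged from 0.722 to 7.30 in AL and from 9.30 to 13.2 in CR (mean log2 CPM), without overlap between the diets. Diet and parotid content therefore cannot be told apart in that fit.

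Tsc22d3 (Gene ID 14605, chromosome X from 140539528 to 140600659, minus strand) encodes the glucocorticoid-induced leucine zipper, GILZ, a mediator of the anti-inflammatory action of glucocorticoids. It stood at 14.7, 18.2, 13.8 and 12.8 CPM in AL against 23.9, 32.1, 38.5 and 20.8 CPM in CR. No CR library overlapped with AL, although CR replicate 4 was only 1.14-fold above the highest AL library. The mean rose from 14.9 ± 2.32 to 28.8 ± 8.01 CPM, 1.94-fold (log2 fold change 0.95, standard error 0.22, edgeR adjusted p = 0.0480). The call sat at the threshold. In the 8 fits without 1 library the log2 fold change ranged from 0.79 to 1.08 and the edgeR adjusted p from 0.00912 to 0.152, and Tsc22d3 was called only without CR replicate 4. It was not called with total counts (edgeR adjusted p = 0.0795), with upper-quartile factors (0.0571) or with that parotid covariate (log2 fold change 0.72, edgeR adjusted p = 0.553).

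Fkbp5 (Gene ID 14229, chromosome 17 from 28399094 to 28517527, minus strand) encodes FKBP51, the co-chaperone that lowers the hormone affinity of the glucocorticoid receptor and is itself induced by it. Its levels were 9.09, 16.9, 18.6 and 26.9 CPM with AL feeding and 23.8, 43.3, 43.6 and 27.7 CPM with CR. Only CR replicate 1 fell below an AL library, replicate 4, so that CR exceeded AL in 15 of 16 pairs of libraries. The means were 17.9 ± 7.30 and 34.6 ± 10.3 CPM, and their ratio of 1.94 was that of Tsc22d3 as well. Fkbp5 was not called (log2 fold change 0.95, standard error 0.31, edgeR adjusted p = 0.132). DESeq2 called it, with an adjusted p of 0.0490.

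Zbtb16 (Gene ID 235320, chromosome 9 from 48654297 to 48836222, minus strand), which encodes the transcriptional repressor PLZF, had a lower mean in CR. It was counted at 2.62, 22.8, 23.5 and 17.2 CPM in the AL libraries and 9.76, 11.7, 22.0 and 10.6 CPM in the CR libraries. AL replicate 1 lay far below the other AL libraries and CR replicate 3 above the other CR libraries, so the diets overlapped at both ends. The log2 fold change was -0.29 with a 95% interval from -1.37 to 0.78, and single libraries moved it either way, to -0.64 without AL replicate 1 and -0.63 without CR replicate 3, and to -0.08 without AL replicate 3, -0.10 without AL replicate 2, -0.16 without CR replicate 1 and -0.19 without CR replicate 4. Sgk1 (Gene ID 20393, chromosome 10 from 21882184 to 21999903, plus strand), a kinase that keeps epithelial sodium channels at the cell surface, was counted rarely, with 11 to 77 reads per library. The levels were 0.848, 2.64, 3.28 and 3.04 CPM under AL and 3.04, 4.56, 3.72 and 2.78 CPM under CR. AL replicate 1 was again the lowest library, and without it the log2 fold change of 0.51 (95% interval -0.36 to 1.39) became 0.24. Neither gene passed the test (edgeR adjusted p = 0.838 for Zbtb16 and 0.584 for Sgk1).

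AL replicate 1 was the lowest of all 8 libraries for Fkbp5, Zbtb16, Sgk1 and Mt2. Across the 8 libraries Sgk1 followed Fkbp5 with a Pearson r of 0.88 and Zbtb16 with an r of 0.80. On deviations from the mean of each diet the values were 0.87 and 0.91. These coefficients describe 8 points that share their scaling, and AL replicate 1 is the extreme point of each. AL replicate 1 was not the lowest library of Tsc22d3, whose r was 0.73 with Fkbp5, 0.50 with Sgk1 and 0.16 with Zbtb16. On deviations from the diet means these values were 0.31, 0.18 and 0.28.

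Klf9, Klf15 and Txnip varied more between libraries of a diet than between the diet means, and they varied together. Txnip (Gene ID 56338, chromosome 3 from 96557957 to 96561883, plus strand) encodes a thioredoxin-binding arrestin that restrains glucose uptake and is induced by glucose. Its levels were 14.1, 37.5, 8.09 and 144 CPM in AL against 6.86, 208, 50.6 and 139 CPM in CR. The lowest and the highest library of all were both CR libraries. The highest library exceeded the lowest 17.8-fold within AL and 30.3-fold within CR, while the means of 51.0 ± 63.5 and 101 ± 90.0 CPM were 1.98-fold apart. The log2 fold change was 0.98 with a 95% interval from -0.998 to 2.96, which leaves changes of either sign possible (edgeR adjusted p = 0.660). Without AL replicate 4 it was 2.34, and without CR replicate 2 it was 0.36. The strand setting of the counting is not given in the sources used here, and the exons of Txnip overlap those of an annotated gene on the other strand, Gm15441.

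Klf9 (Gene ID 16601, chromosome 19 from 23141226 to 23168134, plus strand) encodes a zinc finger factor that is a direct receptor target and a glucocorticoid-driven output of the clock. It was at 87.5, 122, 74.3 and 201 CPM with AL feeding and 99.95, 268, 168 and 196 CPM with CR. From the fourth lowest library upward, Klf9 and Txnip put the libraries in the same order, AL replicate 2, CR replicates 3 and 4, AL replicate 4 and CR replicate 2. Klf15 (Gene ID 66277, chromosome 6 from 90462576 to 90475238, plus strand), a factor that directs amino acid breakdown and glucose production in fasting, was at 6.40, 7.85, 4.66 and 15.5 CPM in the AL libraries and 4.81, 17.3, 6.07 and 16.8 CPM in the CR libraries. Its 3 high libraries, AL replicate 4 and CR replicates 2 and 4, were the 3 highest of Txnip and Klf9 as well. Over 8 libraries r was 0.95 between Txnip and Klf9, 0.94 between Txnip and Klf15 and 0.87 between Klf9 and Klf15. On deviations from the diet means these values were 0.98, 0.94 and 0.91. Neither Klf gene was called. Klf9 had a log2 fold change of 0.60 (95% interval -0.14 to 1.34, edgeR adjusted p = 0.426), and Klf15 had one of 0.38 (95% interval -0.61 to 1.37, edgeR adjusted p = 0.754). The same 2 libraries moved both furthest, Klf9 to 0.36 and Klf15 to 0.10 without CR replicate 2, and Klf9 to 0.95 and Klf15 to 0.83 without AL replicate 4. Klf15 was also 0.12 without CR replicate 4, 0.17 without AL replicate 3, 0.59 without CR replicate 3, 0.63 without CR replicate 1 and 0.18 by voom. Txnip and Klf15 are also abundant in muscle, and the skeletal muscle markers summed to 11.9, 1.04, 2.92 and 8.93 CPM under AL and 2.90, 59.5, 3.90 and 42.9 CPM under CR. They were high in CR replicates 2 and 4, as Txnip was, but not in AL replicate 4, with Ckm, Myh4 and Tnnt3 at 0 in some libraries.

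**Figure D3:**
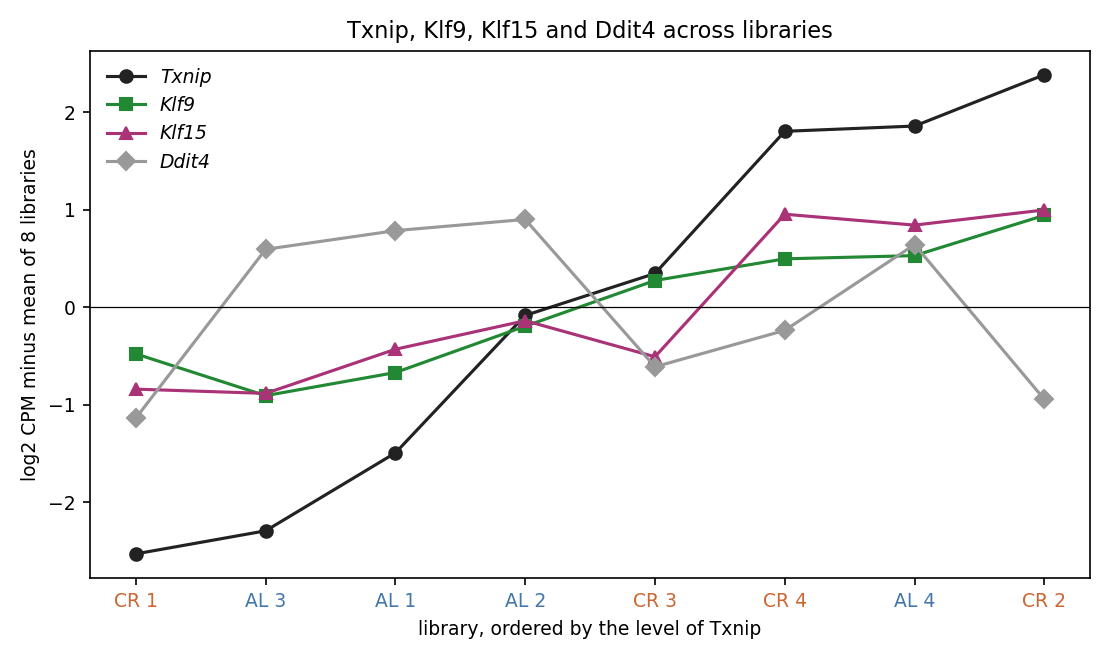
Log2 CPM of Txnip, Klf9, Klf15 and Ddit4 in each library minus the mean of that gene over the 8 libraries, with libraries ordered by their level of Txnip and named in blue (AL) or orange (CR). Klf9 and Klf15 climb with Txnip from left to right across both diets, whereas Ddit4 is high in the 4 AL and low in the 4 CR libraries.

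The metallothionein genes encode small cysteine-rich proteins that bind zinc and copper. They lie side by side on chromosome 8, with Mt2 from 94172664 to 94173568 and Mt1 from 94179082 to 94180327, both on the plus strand and 5513 bases apart. Mt1 (Gene ID 17748) was at 64.9, 56.3, 97.4 and 145 CPM in AL against 210.3, 179.8, 261 and 88.8 CPM in CR. The CR libraries 1 to 3 lay above every AL library, and CR replicate 4 lay within the AL range. The means were 90.8 ± 40.0 and 184.9 ± 72.2 CPM, 2.04-fold higher in CR, with a log2 fold change of 1.03 (standard error 0.35, edgeR adjusted p = 0.152). Mt1 was called without CR replicate 4 (log2 fold change 1.25, edgeR adjusted p = 0.0253), by DESeq2 (adjusted p = 0.0413) and by voom (log2 fold change 1.36, limma adjusted p = 0.0325). Mt2 (Gene ID 17750) was at 14.6, 17.7, 29.6 and 81.2 CPM with AL feeding and 36.1, 61.0, 73.1 and 28.9 CPM with CR. Its highest library was AL replicate 4. The log2 fold change of 0.47 (95% interval -0.58 to 1.52, edgeR adjusted p = 0.699) was 1.26 without AL replicate 4 (edgeR adjusted p = 0.0887), and it was 0.22 without AL replicate 1, 0.23 without CR replicate 3 and 0.25 without AL replicate 2. By voom the log2 fold change of Mt2 was 1.06 (limma adjusted p = 0.187). The pair moved alike from library to library, with an r of 0.85 over 8 libraries and 0.84 on deviations from the diet means. None of the 75-base windows in the last 600 bases of Mt1 or Mt2 transcripts was shared with another gene. The exons of Mt2 overlap those of 1 gene on the other strand, Gm45774.

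Other genes of metal handling did not pass the test, 24 of 30 being counted often enough. Of the 24, 18 had a negative and 6 a positive log2 fold change, and the median was -0.14. At an unadjusted p under 0.05 there were 0 higher and 2 lower genes, against 8.62% and 8.10% of all genes, and DESeq2 and voom called 0 genes of the list each. The smallest p-values were those of Slc30a1, the zinc exporter that shares its metal-responsive regulator with the metallothioneins, and of the heme oxygenase gene Hmox1. Slc30a1 was at 9.17, 11.5, 13.5 and 11.8 CPM in the AL libraries and 7.64, 7.82, 5.82 and 7.22 CPM in the CR libraries. Its libraries did not overlap between the diets, with a log2 fold change of -0.69 (edgeR adjusted p = 0.110), opposite in sign to that of Mt1. Hmox1 had a log2 fold change of -0.88 (edgeR adjusted p = 0.249).

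The glucocorticoid receptor gene itself varied little among AL libraries and more among CR libraries, with coefficients of variation of 5.87% and 22.6%. Nr3c1 was at 24.3, 23.1, 21.5 and 21.7 CPM under AL and 28.6, 26.8, 21.2 and 17.0 CPM under CR. The means of 22.7 ± 1.33 and 23.4 ± 5.29 CPM gave a log2 fold change of 0.05 with a 95% interval from -0.36 to 0.46. Nr3c2, the mineralocorticoid receptor gene, was counted rarely, at 1.15 ± 0.334 CPM in AL and 0.460 ± 0.443 CPM in CR (log2 fold change -1.30, 95% interval -2.79 to 0.19, edgeR adjusted p = 0.378). That fold change was -2.10 without CR replicate 2, -0.94 without CR replicate 3 and -2.04 by voom. Hsd11b1, whose enzyme regenerates active glucocorticoid inside cells, was at 0.462, 0.491, 3.06 and 1.42 CPM in AL against 1.91, 4.50, 3.16 and 1.83 CPM in CR. The diets overlapped (log2 fold change 1.07, 95% interval -0.21 to 2.35, edgeR adjusted p = 0.405), and without AL replicate 3 the log2 fold change was 1.81. Hsd11b2, whose enzyme inactivates the hormone, was counted too rarely for the test, with 1, 2, 0 and 0 reads under AL and 1, 35, 14 and 0 reads under CR. Of 25 tested genes for receptors, steroid-converting enzymes, chaperones and coregulators, none was called, against 1.20% of all genes higher and 0.785% lower. Unadjusted p-values under 0.05 were found for 4 higher and 1 lower gene, against 8.62% and 8.10% of all genes. DESeq2 called 0 of the 25. By voom 2 were called, Bag1 and Stub1, both higher, beside 2.11% of all genes. Stub1 was also called without CR replicate 4 (edgeR adjusted p = 0.0109). The median log2 fold change was -0.07. The smallest p-values belonged to Bag1 and Stub1, cofactors of the Hsp70 chaperone, with log2 fold changes of 0.55 and 0.77 (edgeR adjusted p = 0.104 and 0.117).

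Among other genes known to be induced by glucocorticoids, 3 of 27 tested were called higher in CR and none lower, against 1.20% and 0.785% of all genes. The list, of 34 genes, had a median log2 fold change of 0.50. Unadjusted p-values under 0.05 were found for 9 higher and 2 lower genes, against 8.62% and 8.10% of all genes. Glul, which encodes glutamine synthetase, rose in every CR library. It was at 92.3, 129.9, 136 and 141 CPM with AL feeding and 586, 440.0, 618 and 311 CPM with CR (log2 fold change 1.97, standard error 0.26, edgeR adjusted p = 0.00408). It was called in each of the 8 fits that left out 1 library. Tfcp2l1, a transcription factor gene of secretory ducts, rose from 27.6 ± 6.57 to 64.8 ± 16.6 CPM (log2 fold change 1.23, edgeR adjusted p = 0.0205). Arrdc2, an arrestin-domain gene induced in muscle by glucocorticoids and fasting, rose from 0.769 ± 0.379 to 3.92 ± 1.83 CPM (log2 fold change 2.31, edgeR adjusted p = 0.0347). For all 3 genes the diets did not overlap. DESeq2 called 7 genes of the list higher and 1 lower, beside its 2.97% and 2.26% of all genes. By voom 3 were called higher and none lower, beside 2.11% and 1.43%. Without 1 library Tfcp2l1 kept its call in 6 of 8 fits (lost without AL replicate 1 or CR replicate 3) and Arrdc2 in 2 of 8 (without AL replicate 4 or CR replicate 4), and none of the 3 kept it once the parotid score entered the fit. Their log2 fold changes in that fit were 2.23 for Glul, 1.29 for Tfcp2l1 and 2.48 for Arrdc2. The score did not overlap between the diets, so that fit cannot tell diet and parotid content apart.

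Of 20 inflammatory genes that glucocorticoids are known to repress, 7 were counted often enough, and 6 of the 7 had a negative log2 fold change (median -1.53). At an unadjusted p under 0.05, 3 were lower and 1 was higher, against 8.10% and 8.62% of all genes. The higher one, the chemokine gene Cxcl1, is named after its values were seen and had every CR library above every AL library (log2 fold change 1.11, edgeR adjusted p = 0.245). Mmp3, which encodes the matrix protease stromelysin, was the 1 gene of the 7 called lower, against 0.785% of all genes, falling from 20.98 ± 6.70 to 7.04 ± 2.96 CPM (log2 fold change -1.57, edgeR adjusted p = 0.0326). The call held when CR replicate 1, CR replicate 4 or AL replicate 4 was dropped and was lost without each of the other 5 libraries (edgeR adjusted p up to 0.109). Leukocyte markers, given above, were lower in the same libraries. Fibroblast markers summed to between 158 and 285 CPM in AL and between 134 and 202 CPM in CR, all 6 being counted in every library. Of the 6, 2 were called lower, Col1a1 and Col3a1 (log2 fold changes -2.50 and -2.79). Col1a2, Lum and Pdgfra were at -1.01, -0.98 and -0.65 and were not called. Dcn, the most abundant of the 6, went the other way (109 CPM in AL and 127 CPM in CR on average, log2 fold change 0.22, not called). The part of either cell type in this list was not tested.

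Among fasting genes and targets of FoxO and PPAR alpha, edgeR called 2 of 23 tested higher and none lower, against 1.20% and 0.785% of all genes. These were Pnpla2, the triglyceride lipase gene (from 20.1 ± 3.82 to 54.2 ± 19.6 CPM, log2 fold change 1.43, edgeR adjusted p = 0.0277), and Ppargc1a, the gene of a coactivator of mitochondrial biogenesis (from 2.99 ± 2.24 to 21.2 ± 12.4 CPM, log2 fold change 2.85, edgeR adjusted p = 0.0497). In both, CR replicate 4 lay within the AL range. The call of Ppargc1a sat at the threshold and was lost with TMM factors (edgeR adjusted p = 0.0501) and upper-quartile factors (0.0519). Pnpla2 kept its call without AL replicate 3 or CR replicate 4, and Ppargc1a without CR replicate 4, and both lost it without each other library. DESeq2 called 4 genes of the list higher and none lower, beside its 2.97% and 2.26% of all genes. By voom 3 were called higher and 1, Bdh1, lower, beside 2.11% and 1.43%. Unadjusted p-values under 0.05 were found for 7 higher and 3 lower genes, against 8.62% and 8.10% of all genes, and the median of the list was 0.16. White adipose markers and parotid transcripts were both lowest in CR replicate 4 among the CR libraries, and the part of either tissue in these results was not tested. The log2 fold change of Ppargc1a was -0.12 once the parotid score, which did not overlap between the diets, entered the fit.

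In the list of glucose-sensing arrestins, thioredoxins and mTORC1 brakes edgeR called 1 of 27 tested genes higher, Eif4ebp1, and none lower, against 1.20% and 0.785% of all genes. DESeq2 called Eif4ebp1 higher and Txnrd1, a thioredoxin reductase gene, lower, beside its 2.97% and 2.26% of all genes. By voom Eif4ebp1 alone was called, beside 2.11% higher and 1.43% lower. Unadjusted p-values under 0.05 were found for 8 higher and 2 lower genes of the list, against 8.62% and 8.10% of all genes. The median log2 fold change of the list was 0.38. Eif4ebp1 encodes a translation repressor controlled by mTORC1 and rose from 60.0 ± 9.62 to 121.9 ± 30.7 CPM, with every CR library above every AL library (log2 fold change 1.02, standard error 0.21, edgeR adjusted p = 0.0335). Its call held in 3 of 8 fits, those that dropped CR replicate 1, CR replicate 4 or AL replicate 4. Arrdc4, the close relative of Txnip that answers to the same glucose-sensing factors, was singled out after its values were seen. It was at 5.16, 4.11, 6.49 and 3.91 CPM in the AL libraries and 9.69, 8.53, 14.3 and 4.00 CPM in the CR libraries. Arrdc4 did not follow the order of Txnip, being lowest in AL replicate 4 and next lowest in CR replicate 4, which were among the 3 highest of Txnip (log2 fold change 0.89, edgeR adjusted p = 0.208). What sets the level of either gene was not tested.

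Immediate early genes, which respond quickly to stress and to tissue handling, showed no called gene among 12 tested, and the median log2 fold change was -0.08. At an unadjusted p under 0.05, 1 gene of the 12 was higher, Ier3 (log2 fold change 0.99, edgeR adjusted p = 0.111), against 8.62% of all genes. Ier3 was called by DESeq2, by voom and without CR replicate 4. Btg2 had the next smallest p, with a log2 fold change of -0.48. The list of clock genes, by contrast, was positive in log2 fold change for 12 of 12 tested, with a median of 1.41. It holds Per1, Per2, Per3, Dbp, Tef, Hlf, Nr1d1, Nr1d2, Ciart, Bhlhe41, Cry1 and Cry2, whose phases were not examined here. Of these, 7 were called higher (Per2, Per3, Dbp, Tef, Hlf, Nr1d2 and Bhlhe41), against 1.20% of all genes. DESeq2 called 9 of the 12 higher and voom 8, beside 2.97% and 2.11% of all genes. Hlf and Bhlhe41 each kept their calls in 4 of 8 fits without 1 library, and the other 5 in all 8. Per1, a receptor target as well as a clock gene and singled out after its values were seen, was at 10.9, 15.0, 12.5 and 11.7 CPM under AL and 16.3, 23.4, 26.7 and 22.3 CPM under CR, with a log2 fold change (0.82) near those of Fkbp5 and Tsc22d3 and an edgeR adjusted p of 0.0546.

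**Figure D4:**
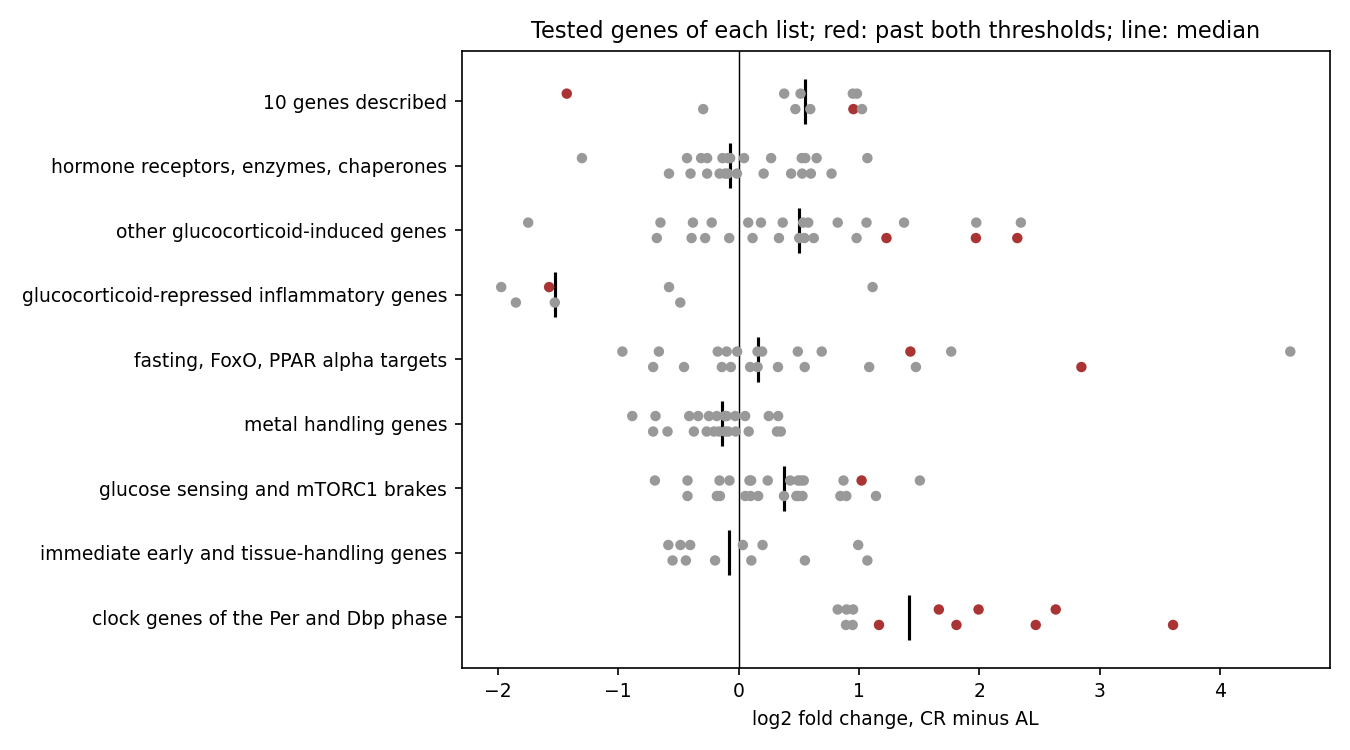
Log2 fold change of CR over AL for every tested gene of each list, red where called, with the median of the list as a vertical line. The 10 genes described have a median of 0.56, and the clock genes one of 1.41. The axis label of the clock genes names the Per and Dbp phase, but their phases were not examined.

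For each gene the 2 most similar profiles among the other 11210 genes tested were read by Pearson r of log2 CPM over 8 libraries. Nearest to Ddit4 were the cyclin gene Ccnd1 and the lysosomal glucuronidase gene Gusb (r = 0.97 for each). Nearest to Tsc22d3 were Ech1, of fatty acid oxidation, and Tacc2 (both 0.97). Txnip was closest to Thap12 and to the Notch target Hes1 (both 0.98), Klf9 to Card19 and Ctdsp2 (both 0.98), and Klf15 to Chic2 and Llgl2 (both 0.99). Mt1 was closest to Trib3, a stress-induced pseudokinase gene (0.98), and then to Cyth2 (0.94). The other neighbours were Gcn1l1 and Apobec3 for Fkbp5, Trpv4 and Prex2 for Zbtb16, Fam46b and Pde8b for Sgk1, and Jpx and Lnx1 for Mt2, with r between 0.93 and 0.98. These values describe 8 points only, and 184 genes reached an r over 0.9 with Txnip and 96 with Ddit4.

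**Figure D5:**
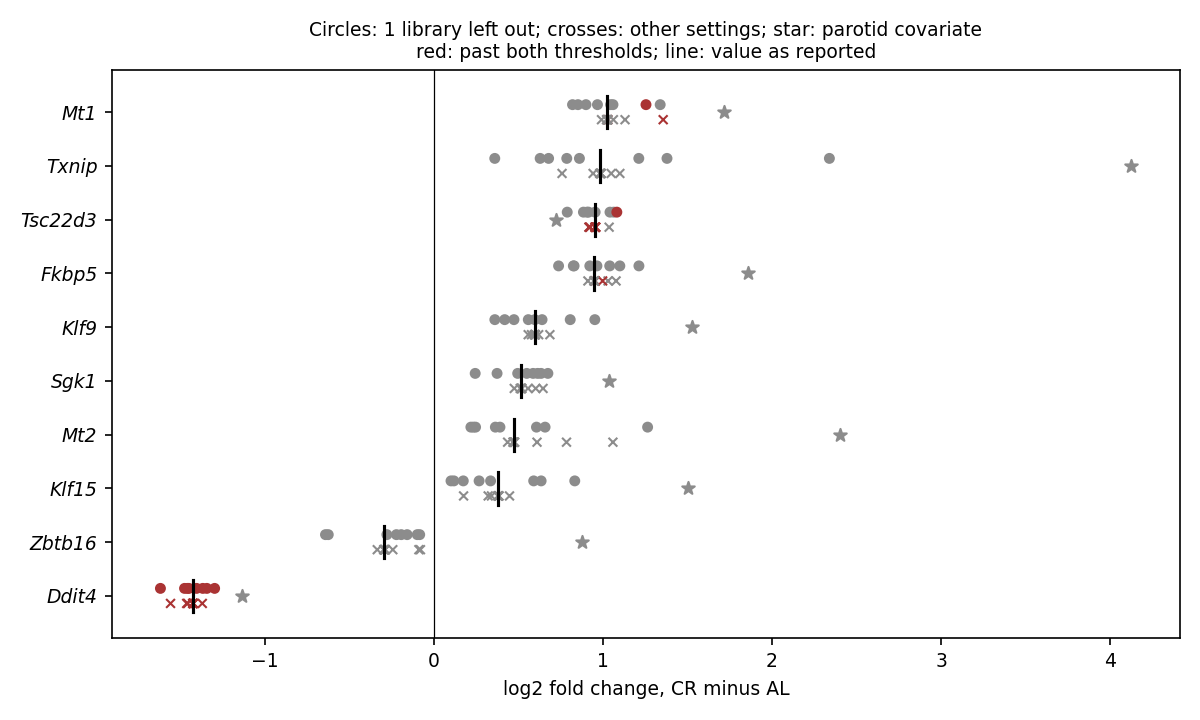
Log2 fold change of each of the 10 genes when 1 library was left out (circles), under other settings (crosses) and with the parotid covariate (star), red where called, beside the value reported (line). Ddit4 stays between -1.62 and -1.13, while the values of Txnip spread from 0.36 to 4.12.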

How the data were processed

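Polyadenylated RNA ends from LGs of both diets were sequenced (4 libraries each). By the submitters' processing notes, the authors used cutadapt, then STAR on mm10 and HTSeq, and deposited the resulting raw counts. Tool versions and the strand setting are not given in the sources used here. The log2 values deposited by the authors, made from the counts with DESeq2 size factors, were not used.

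Of 24557 rows, 5 repeated symbols were dropped. The contrast of CR over AL was fitted in R 4.3.3 using edgeR 4.0.16 (RLE factors, filterByExpr, quasi-likelihood F test, Benjamini-Hochberg adjustment over 11211 genes). Standard errors are log2 fold changes over root F. The biological coefficient of variation was 34.7%. The study describes the libraries as 4 mice per diet, and the labels name no animals, so p-values measure the spread between these samples. Libraries ranged from 12051881 to 22156511 counts. Log2 CPM used a prior count of 0.5. Pairing by replicate number was not used, since only 3 of the 4 same-number pairs had a correlation of deviations over 0.1 and the labels name no shared batch.

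The 10 genes and all lists were chosen with earlier results of these data known. From each list the genes called are named, or else the 2 with the smallest p, with 4 hormone genes and 2 neighbours per gene. Alternatives were TMM, upper-quartile and total-count scaling, DESeq2 1.42.0, limma 3.58.1 voom with sample quality weights (a change of test and weighting together), other filters, no fold threshold, a replicate block, 50 top genes left out, a parotid score (6 markers) and each library left out. On simulated data, tested for this comparison with 11211 genes, 76 of 98 genes with a log2 change of 2 in size and 36 of 99 with 1 were called, and 7 of 10792 unchanged genes. Positions come from GENCODE on GRCm38.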

Additional observations from a re-analysis of the deposited data

Results flagged for a closer look

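Of 66 groups of 4 libraries examined with Dixon's test, 2 held a library set far from its group, and chance gives about 1 in 20 groups. Zbtb16 stood at 22.0 CPM in CR replicate 3, above the other CR libraries at 9.76 to 11.7 CPM and inside the AL range. Hlf, a clock output gene, stood at 6.39 CPM in AL replicate 4, above the other AL libraries at 3.06 to 3.19 CPM.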

How the results depend on the processing

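Of 180 values of the 10 genes under alternatives, 163 kept direction and side of the threshold, 5 gained a call, 11 lost one and 1 reversed. Genes called higher and lower, 134 and 88 as reported, were 400 and 305 by DESeq2, 237 and 160 by voom, 271 and 165 without a filter, and 123 and 51 with total counts. Of the 10 genes, those called higher numbered 3 by DESeq2 (Fkbp5, Tsc22d3, Mt1), 2 by voom (Tsc22d3, Mt1) and 0 with upper-quartile factors or total counts. With the parotid score as covariate 4 genes were called higher and 0 lower, and among the 10 genes 0 higher and 0 lower, with a median of 1.51. Zbtb16 was then 0.87, Nr3c1 -0.37 and Ppargc1a -0.12, all reversed in sign, and Dbp was the only gene to keep its call among the called genes followed under this alternative, which leave out the tissue markers. The score did not overlap between the diets, so this fit cannot tell diet and parotid content apart. Its other log2 fold changes are given as values only. Per2 was 4.21, Per3 3.86, Tef 2.10, Hlf 2.36, Bhlhe41 2.57, Glul 2.23, Tfcp2l1 1.29, Arrdc2 2.48, Eif4ebp1 1.31 and Mmp3 -1.89. Pnpla2 was 0.89, Nr1d2 0.94, Tsc22d3 0.72 and Ddit4 -1.13. Leaving out 1 library gave 35 (without AL replicate 2) to 453 (without CR replicate 4) genes higher, 25 (without CR replicate 2) to 247 (without CR replicate 4) lower, 0 to 2 of the 10 genes higher, and a log2 fold change of Nr3c1 from -0.056 to 0.17, negative without CR replicate 1 (-0.056) or 2 (-0.019). Same-number libraries had correlations of deviations from 0.07 to 0.43, and 5 of 8 libraries correlated best with their own number, a hint from the data and not the design. A replicate block gave 388 higher and 312 lower genes and called 2 of the 10 genes higher, Tsc22d3 and Fkbp5, and 1 lower, and it also called Stub1 (edgeR adjusted p = 0.0343) and Ier3 (0.0185). The cause of these shifts was not tested. The alternative for genes failing the filter was not run, since all 10 passed. Among the 10 genes depth limits Sgk1 most, at 11 to 77 reads.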
